A study of Homo sapiens with 12 samples.

Results

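HOX cluster genes encode the homeodomain transcription factors of the HOXA, HOXB, HOXC and HOXD clusters. They were taken as every row of the count table whose symbol was HOXA, HOXB, HOXC or HOXD followed by a number, which gave 39 genes among 23434 rows. The 38 described here comprise 10 in HOXA, 10 in HOXB, 9 in HOXC and 9 in HOXD. The table came from EU-seq, in which cells are given 5-ethynyl-uridine (EU) for a short pulse and the RNA made in that window is captured and sequenced. The values thus follow newly made RNA and not the amount of mature RNA. Loss of new RNA within the pulse was not measured, so transcription and stability cannot be told apart here.

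HOX genes set the identity of body segments along the axis of the embryo. Within a cluster they lie in the order in which they act, with low-numbered (anterior) genes at the 3' end and high-numbered (posterior) genes at the 5' end, and genes with the same number in different clusters are called paralogs. Cells of adult tissues and tumours, bone and its tumours among them, often keep a set of active HOX genes that reflects where the tissue arose, with Polycomb proteins holding the silent genes off and trithorax proteins keeping the active ones on.

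The cells were U2OS-MycER, an established bone tumour (osteosarcoma) line of human origin with a MycER transgene, in which the oncoprotein Myc is joined to the ligand-binding domain of the estrogen receptor so that 4-hydroxytamoxifen (OHT) switches it on. There were 4 groups of 3 libraries. They carried a non-targeting hairpin (shNT) or a hairpin against CDK12, a kinase of RNA polymerase II (shCDK12), each without OHT or with 300 nM OHT for 40 h. All groups had MycER and 1 µg/mL doxycycline, were held with 100 ng/mL nocodazole for 8 h, were collected 12 h after release and had a pulse of 0.5 mM EU for 2 h, and 40 µg of human RNA was mixed with 10 µg of mouse RNA. The labels give a replicate number but no separate cultures, so p-values measure the spread between these libraries, which may be technical.

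Libraries held 1251695 to 10447836 counts, with the lowest total in shNT+OHT replicate 2, and the interval of any low count covers counting error only. Levels are given as CPM, counts scaled to one common library size with the TMM factors of all 12 libraries. Every level, rise and fall is thus relative to the other human genes in the table. A change in the total of new RNA between groups was not measured, as reads of the mouse RNA were not used. The gene CDK12 was set beside the labels, though its newly made RNA need not follow the amount of mature CDK12 RNA. It stood at 304 ± 17.4 CPM (SD, n = 3) in shNT and 289 ± 10.9 in the libraries labelled shCDK12, a log2 change of -0.08 (adjusted p = 0.447), and at 397 ± 38.7 in shNT+OHT against 214 ± 5.09 in those labelled shCDK12+OHT, a log2 change of -0.88 (adjusted p = 0.00011). OHT itself changed newly made CDK12 RNA by a log2 change of 0.38 in shNT (edgeR adjusted p = 0.0352). In the libraries labelled shCDK12 the change with OHT was -0.44 (edgeR adjusted p = 9.55e-05). The hairpin difference without OHT missed the threshold, and neither hairpin difference can check the labels. Every direction drawn below from the libraries labelled shCDK12 or shCDK12+OHT rests on their label. As a check of the line, 8 markers of mesenchymal or osteoblast cells summed to 1556 to 1638 CPM in shNT, 1034 to 1138 in shNT+OHT, 427 to 434 in the libraries labelled shCDK12 and 594 to 608 in those labelled shCDK12+OHT, while 4 epithelial markers summed to between 9.90 and 15.2 CPM with KRT19 at 0. Within that sum EPCAM stood at 0.820 ± 0.884 CPM in shNT and 8.03 ± 1.45 in the libraries labelled shCDK12, and CDH1 at 9.57 ± 1.29 and 6.10 ± 2.28. The 8 mesenchymal markers were uneven too, with FN1 at 659 ± 8.60 CPM in shNT and 38.2 ± 2.93 in the libraries labelled shCDK12. COL1A2 stood at only 0.130 ± 0.225 CPM in shNT, and ALPL at 6.49 ± 1.37, below CDH1. The 3 neuronal markers summed to 22.1 to 24.4 CPM in shNT, 15.1 to 22.9 in shNT+OHT, 9.97 to 13.7 in the libraries labelled shCDK12 and 11.03 to 11.6 in those labelled shCDK12+OHT. These levels moved with the groups, and their part in the HOX results was not tested. In bulk libraries, fewer cells of a kind and less new RNA per cell cannot be told apart.

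RefSeq promoter windows (GRCh38.p14, 250 bases before and 50 after each start) were at hand for 20 of the 38 genes, in 27 windows. No window was matched for HOXA5, HOXB2 to HOXB9, HOXB13, HOXC6, HOXC8 to HOXC13 and HOXD9. The letters CACGTG, the E-box that Myc with its partner Max is known to bind, stood on either strand in 9 of the 27 windows and in 7.26% of all 35116 windows. Those 9 windows belonged to HOXA3, HOXA4, HOXA7, HOXA9, HOXD1, HOXD3, HOXD10, HOXD11 and HOXD13. The windows are not independent, since HOXA3 has several and HOXC4 and HOXC5 share the same interval. Counted by gene, the letters were found for 9 of 20 HOX genes and 8.77% of all 27305 genes. HOXB3, HOXB9, HOXB13 and HOXC8, which passed the test with OHT in shNT, had no window, so the response to OHT was not compared with these letters. GGGCGG, the GC box, was in 13 of the HOX windows and 45% of all, and TATAAA, the TATA box, in 5 of them and 11.5% of all. The 250 bases before the start are shown for HOXA11, the member with the largest rise between hairpins, and for HOXD1 and HOXD8, which also rose and differ from each other in these letters. They lie at chr7:27185233-27185482 on the minus strand, chr2:176188418-176188667 on the plus strand and chr2:176129455-176129704 on the plus strand. They are printed 5' to 3' on the gene's strand, with the searched letters in capitals.
HOXA11: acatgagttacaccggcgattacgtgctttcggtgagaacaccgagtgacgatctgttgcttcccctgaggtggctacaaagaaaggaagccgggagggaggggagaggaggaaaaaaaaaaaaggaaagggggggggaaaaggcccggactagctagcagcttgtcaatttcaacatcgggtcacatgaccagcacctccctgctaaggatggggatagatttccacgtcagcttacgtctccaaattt
HOXD1: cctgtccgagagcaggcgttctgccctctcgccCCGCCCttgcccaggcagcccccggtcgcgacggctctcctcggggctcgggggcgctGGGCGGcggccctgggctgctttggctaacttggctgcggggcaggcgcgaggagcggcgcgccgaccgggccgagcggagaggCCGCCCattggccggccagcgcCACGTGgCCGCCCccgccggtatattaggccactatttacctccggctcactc
HOXD8: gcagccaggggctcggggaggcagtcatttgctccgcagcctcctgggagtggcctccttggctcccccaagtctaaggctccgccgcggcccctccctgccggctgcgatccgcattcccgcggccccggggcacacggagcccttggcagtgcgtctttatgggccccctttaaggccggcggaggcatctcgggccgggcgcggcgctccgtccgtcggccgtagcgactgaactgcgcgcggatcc
The HOXD1 stretch held a CACGTG whose first letter was 53 bases before the start, and 4 matches to GGGCGG or its reverse complement CCGCCC. Neither HOXA11 nor HOXD8 held any of the letters searched. These matches describe the sequence and say nothing of binding.

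To see which parts of the clusters were transcribed, each gene was first placed by its highest count in any library. HOXB1 had no count in all 12 libraries, which allows at most 0.285 CPM in the deepest library and 2.47 in the shallowest (3 counts). A further 9 genes never passed 9 counts, namely HOXA6, HOXA7, HOXB2, HOXB8, HOXC5, HOXC12, HOXD4, HOXD12 and HOXD13. Between 10 and 99 counts at most were reached by 13 genes, and 100 or more by 15. The filter on low values, set at an average of more than 32 normalized counts per library, was passed by 19 genes in at least 1 comparison and by 19 in none. The 19 were the 10 genes above with HOXA2, HOXA5, HOXA9, HOXA13, HOXB4, HOXB5, HOXC4, HOXD3 and HOXD10. Among these, HOXD3 had at most 14 counts in a library and was at 0 in all 3 shNT+OHT libraries, and HOXA2 had at most 37.

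**Figure D1:**
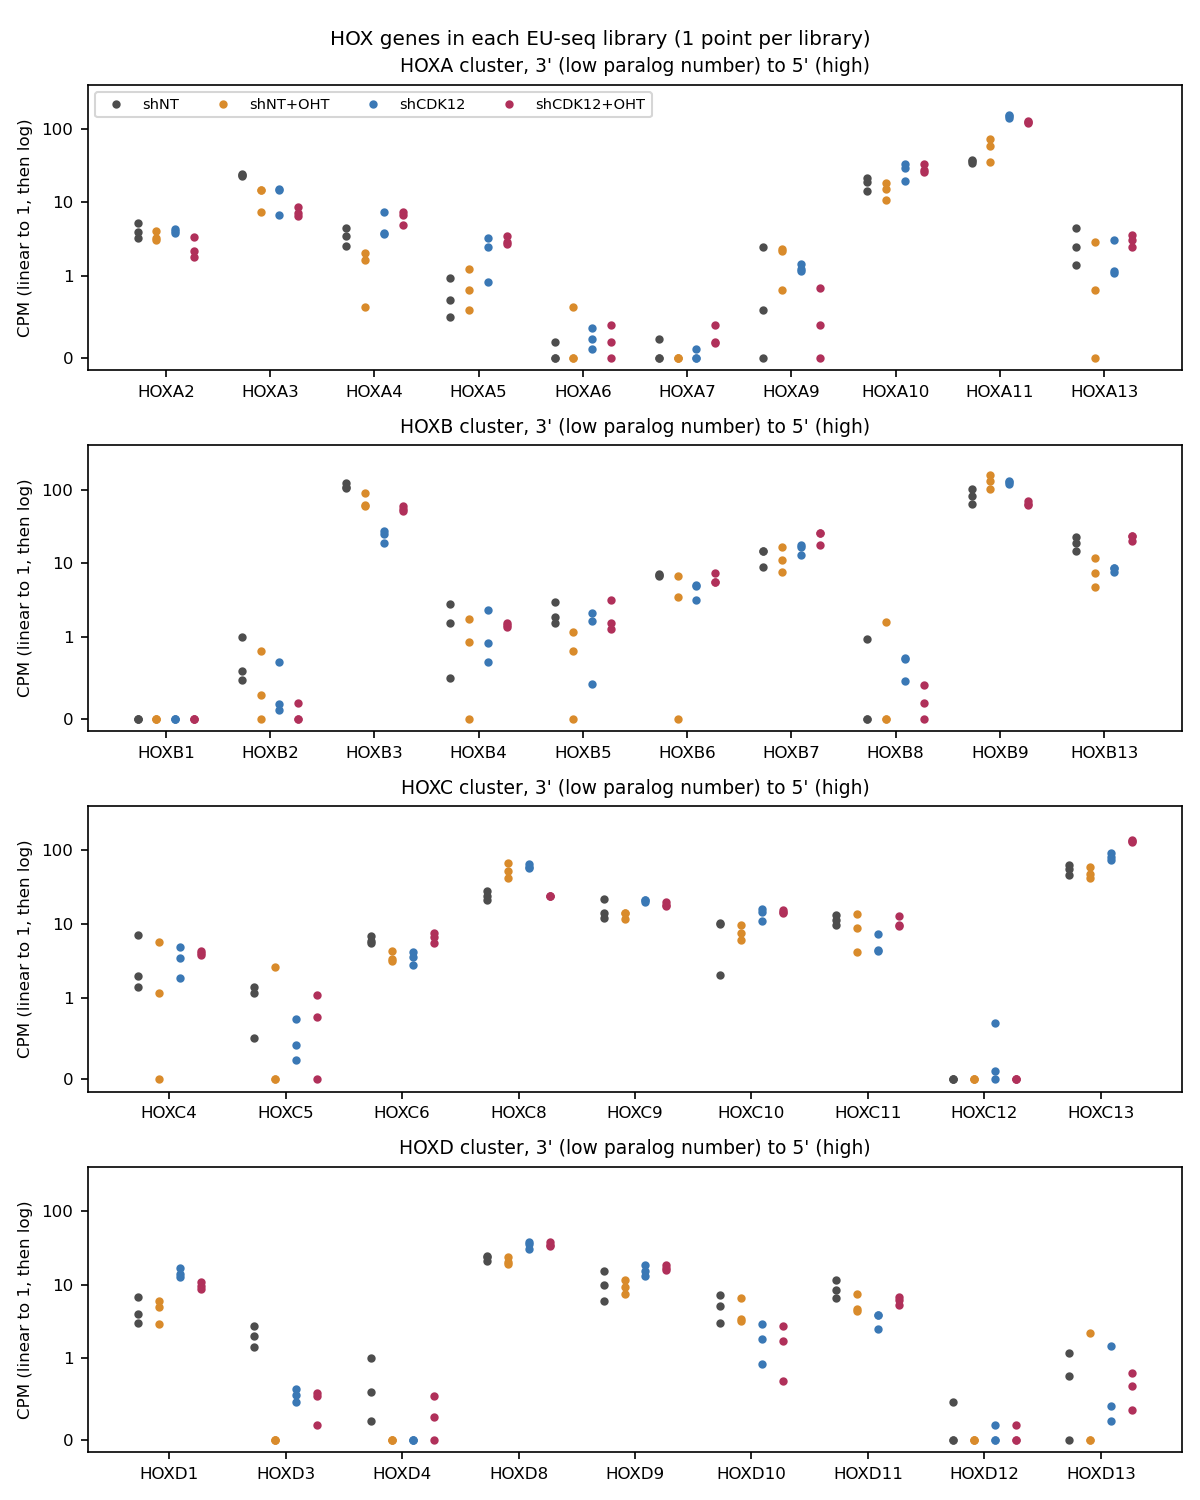
Level of each of the 38 HOX genes in each of the 12 libraries, in CPM on an axis that is linear from 0 to 1 and logarithmic above, with the genes of each cluster ordered by paralog number. In every cluster a few genes stand well above their neighbours, such as HOXA10 and HOXA11, HOXB3 and HOXB9, and HOXC8 and HOXC13, while HOXB1 is at 0 in every library.

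Signal was uneven along the clusters. In HOXA the highest counts over all 12 libraries were at the posterior genes HOXA10 and HOXA11, with HOXA6 and HOXA7 at no more than 3 counts in any library. In shNT, however, HOXA3 stood above HOXA10, at 23.6 ± 0.670 CPM beside 18.3 ± 3.53 (SD, n = 3). HOXA3 stood at 5.49 CPM per kb of exon in shNT and HOXA4 at 2.04, while in the libraries labelled shCDK12+OHT HOXA3 stood at 1.74 and HOXA4 at 3.70 CPM per kb. On the scale of CPM per kb of exon, the highest shNT levels were 31.7 for HOXB9, 23.3 for HOXC13, 15.1 for HOXB3, 13.7 for HOXA11 and 10.1 for HOXC8. The order differed in the libraries labelled shCDK12, where HOXA11 led with 55.2, followed by HOXB9 with 48.7, HOXC13 with 34.6, HOXC8 with 25 and HOXD8 with 13.2 CPM per kb. HOXA11 was higher than 83.5% of all genes with a length in shNT and higher than 96.5% in those libraries. The HOXD cluster had the lowest sum, with 24.5 ± 2.82 CPM per kb in shNT (SD, n = 3) against 29.3 ± 2.10 for HOXA, 66.4 ± 5.93 for HOXB and 53.2 ± 8.23 for HOXC. Exon lengths came from an annotation of another build than the counts, which limits these levels between genes.

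On this relative scale the 38 genes together held 508 ± 32.5 CPM in shNT, 503 ± 61.6 in shNT+OHT, 644 ± 9.78 in the libraries labelled shCDK12 and 636 ± 19.4 in those labelled shCDK12+OHT (SD, n = 3). Whether their absolute transcription changed was not tested. Within this sum the anterior genes (paralog groups 1 to 3) held 29.1% ± 3.36 in shNT, 18.1% ± 2.67 in shNT+OHT, 8.64% ± 0.540 in the libraries labelled shCDK12 and 11.9% ± 0.523 in those labelled shCDK12+OHT. The posterior genes (groups 9 to 13) held 53.7% ± 5.23, 61.3% ± 4.33, 70.6% ± 1.55 and 70.2% ± 2.03 in the same order. These shares of CPM weight long genes more. Summed per kb of exon, the anterior genes held 25.7 ± 1.25, 16.5 ± 3.15, 15.8 ± 0.572 and 15.6 ± 1.20 CPM per kb in that order and the posterior genes 109 ± 19.4, 123 ± 22.1, 180.3 ± 7.55 and 178 ± 6.52. On that scale the anterior sums of both groups labelled shCDK12 lay within 1 SD of each other. Both also lay within 1 SD of shNT+OHT from its mean, so the lower anterior share than in shNT+OHT was not seen per kb. By cluster, HOXB went from 46.7% ± 0.828 in shNT to 28.2% ± 1.13 in the libraries labelled shCDK12 and HOXA from 18% ± 1.96 to 31.3% ± 3.11, while per kb HOXB went from 66.4 ± 5.93 to 68.4 ± 2.24 and HOXA from 29.3 ± 2.10 to 72.4 ± 6.37 CPM per kb. These shares rest mostly on the few abundant genes described next, and no test was made of them.

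**Figure D2:**
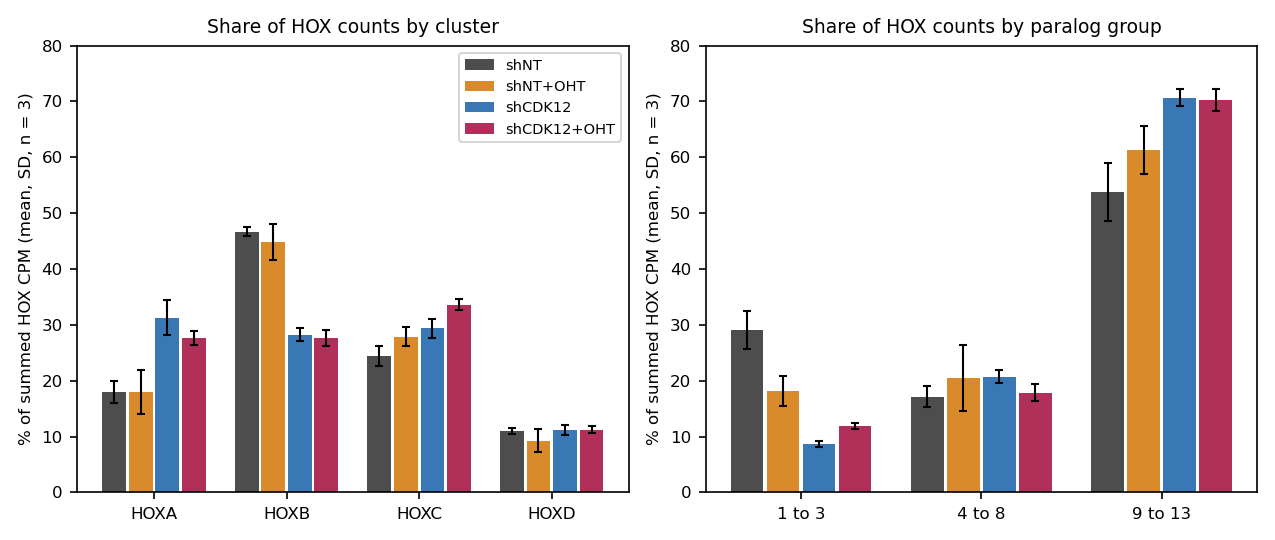
Share of the summed HOX CPM, not divided by gene length, held by each cluster (left) and by anterior, central and posterior paralog groups (right), as the mean of 3 libraries with the SD, for the 4 groups. The anterior share is 29.1% in shNT and 8.64% in the libraries labelled shCDK12, and the posterior share is 53.7% and 70.6%. Per kb of exon, not drawn here, the anterior sum is 25.7 CPM per kb in shNT, 16.5 in shNT+OHT and 15.8 in the libraries labelled shCDK12.

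OHT in shNT cells was used to ask how HOX genes respond to MycER activation. The anterior genes HOXA3 and HOXB3 and the posterior gene HOXB13 fell, and HOXC8 and HOXB9 rose. Of 13 members tested, 2 rose and 3 fell, against 9.05% and 8.29% of all 10272 genes tested (17.3% in either direction). The 13 had a median log2 change of -0.20 beside -0.03 for all genes. With upper-quartile scaling and with DESeq2 3 HOX genes rose, HOXA11 among them, and 2 fell. Of all genes 1064 rose and 724 fell of 10272 with the first, and 1080 and 784 of 10271 with the second.

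HOXC8, which takes part in patterning at the level of the forelimb and chest, had 27.6, 21.5 and 24.1 CPM in shNT and 42.0, 52.0 and 67.6 in shNT+OHT. Every OHT library was above every shNT library, and the log2 change was 1.14 ± 0.22 (SE; adjusted p = 0.00357). HOXB9, a gene of the chest region, had 101, 81.2 and 63.6 CPM against 156, 102 and 131 with OHT. The groups came close but did not overlap, with a log2 change of 0.66 ± 0.18 (adjusted p = 0.0241).

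HOXB13, a regulator of the prostate and of the tail end of the axis, had 22.5, 18.5 and 14.5 CPM in shNT and 4.70, 7.42 and 11.6 with OHT, a log2 change of -1.22 ± 0.35 (adjusted p = 0.028). HOXA3, needed for the thymus and parathyroid glands, had 24.4, 23.0 and 23.6 CPM in shNT and 14.7, 7.42 and 14.8 with OHT (log2 change -0.87 ± 0.29, adjusted p = 0.0499). Both were lower in all 3 OHT libraries. HOXB3, a hindbrain and pharyngeal gene, had 108, 106 and 122 CPM against 90.2, 60.2 and 61.8 with OHT (log2 change -0.65 ± 0.18, adjusted p = 0.0225). For this gene too the groups did not overlap. The libraries of shNT and shNT+OHT did not overlap for 5 of the 13 members and for 35.9% of all genes tested.

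Of these 5 genes HOXC8 alone passed the test without any 1 of the 6 libraries. HOXA3, HOXB3 and HOXB13 each missed it whichever shNT library was left out, and HOXB9 without shNT replicate 2 or 3. On the OHT side, HOXA3 and HOXB3 missed it without shNT+OHT replicate 2 or 3, HOXB13 without replicate 1 and HOXB9 without replicate 3. HOXA3 also missed it with DESeq2, upper-quartile scaling, the filter at a mean count of 10 and filterByExpr. Between 1 and 5 HOX genes passed when single libraries were left out, with 2, 1 and 1 of them without shNT replicates 1, 2 and 3 and 2 without shNT+OHT replicate 3. Calls over all genes dropped too, to 751 of 10072, 670 of 9892, 818 of 10449 and 1101 of 10255 in that order. The log2 change across all genes also followed GC content in this comparison (r = 0.273 across 10147 genes, which are not independent), and the exons of the 13 HOX genes had a median GC content of 54.8% against 47.4%. With length and GC trends removed, 2 HOX genes still rose and 3 fell, beside 1294 and 997 of all 10272 genes.

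HOXA11 had 58.3, 35.5 and 71.9 CPM with OHT beside 37.9, 36.9 and 34.6 in shNT, with a log2 difference of 0.63 ± 0.22 that missed the threshold (adjusted p = 0.0646) and with groups that overlapped through shNT+OHT replicate 2. HOXA11 passed in 6 of 16 alternatives, with log2 differences from 0.43 to 0.86 over all of them. The other 7 members tested, HOXA10, HOXB7, HOXC9, HOXC11, HOXC13, HOXD8 and HOXD9, had log2 differences between -0.27 and -0.10 with adjusted p from 0.577 to 0.88. HOXC13, for example, had 63.0, 55.2 and 46.6 CPM in shNT and 59.2, 42.1 and 47.6 with OHT.

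To compare the hairpins without OHT, the libraries labelled shCDK12 were set against shNT. HOXA11 was 4.02-fold higher and HOXB3 4.70-fold lower in the libraries labelled shCDK12, the largest changes among the members. Of 15 members tested, 8 were higher and 4 lower, where 29.6% and 32.4% of all 11718 genes were (62.0% in either direction). The median log2 change was 0.57 for the 15 and -0.03 for all genes. The lean towards higher depended on the filter. At a mean count of 10, 8 of 23 members tested were higher and 6 lower, beside 3987 and 4125 of all 14424 genes. With no filter 8 of 37 were higher and 6 lower, beside 4330 and 4133 of all 21382 genes. Of the 3 anterior genes tested 2 were lower and 1 higher, and of the 9 posterior genes 5 were higher and 2 lower. Position itself was not tested, and only 9 of 16 posterior genes passed the filter. Of the others, HOXD11 had 11.7, 8.59 and 6.52 CPM in shNT and 3.94, 2.52 and 3.89 in the libraries labelled shCDK12. HOXD10, HOXA13 and HOXD12 also had lower means there, and HOXA9, HOXC12 and HOXD13 higher ones.

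HOXA11, needed for the forearm skeleton and the uterus, had 141, 147 and 153 CPM in the libraries labelled shCDK12 beside 37.9, 36.9 and 34.6 in shNT. All 3 were above every shNT library, with a log2 change of 2.01 ± 0.11 (adjusted p = 9.23e-14). HOXA11 shares 27.2% of its exon length with HOXA11-AS on the other strand, and how the counting used strand is not given in the sources used here. HOXA11-AS itself had 4.92, 2.73 and 5.01 CPM in shNT and 7.64, 6.72 and 8.88 in the libraries labelled shCDK12, and it did not pass the filter in this comparison. Its neighbour HOXA10, a gene of the uterus and lumbar spine, had 14.5, 21.5 and 19.0 CPM against 19.5, 33.3 and 29.2. It was higher by 0.60 ± 0.21 on the log2 scale (adjusted p = 0.0163), with groups that overlapped, and missed the threshold without shNT replicate 1 or shCDK12 replicate 2 or 3.

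HOXC8 had 57.4, 58.9 and 65.0 CPM and HOXB9 129, 117 and 132 CPM in the libraries labelled shCDK12, all above the shNT libraries. Their log2 changes were 1.31 ± 0.15 (adjusted p = 5.05e-08) and 0.59 ± 0.12 (adjusted p = 0.000189). HOXC13, which drives keratin genes of hair and nail, rose to 91.3, 73.2 and 79.9 CPM from 63.0, 55.2 and 46.6 (log2 change 0.54 ± 0.13, adjusted p = 0.000929).

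HOXD1 had 3.98, 6.83 and 3.01 CPM in shNT and 16.9, 12.8 and 13.9 in the libraries labelled shCDK12, a log2 change of 1.54 ± 0.29 (adjusted p = 7.41e-05), and it was the only anterior gene tested that was higher. HOXD1 did not pass the filter in shNT+OHT against shNT, so its test here leaned on the libraries labelled shCDK12. HOXD8 went from 21.1, 24.4 and 23.6 CPM to 35.2, 38.2 and 30.9 (log2 change 0.60 ± 0.17, adjusted p = 0.00306). HOXC10, a gene of lumbar motor neurons and the hindlimb, had 10.1, 10.1 and 2.00 CPM against 16.2, 10.9 and 14.4 (log2 change 0.73 ± 0.31, adjusted p = 0.0445). HOXC10 missed the threshold without shNT replicate 3, the low library, and without shCDK12 replicate 1 or 3. HOXD8 shares 24.4% of its exon length with HOXD-AS2 and HOXD1 7.69% with HAGLR, both on the other strand.

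On the lower side, HOXB3 had 27.1, 25.1 and 19.1 CPM in the libraries labelled shCDK12 where shNT had 108, 106 and 122. The groups lay far apart, with a log2 change of -2.23 ± 0.14 (adjusted p = 1.01e-12). HOXB13 had 8.57, 7.66 and 8.70 CPM (log2 change -1.19 ± 0.24, adjusted p = 0.000121), each below every shNT library. HOXA3 had 6.72, 15.4 and 15.0 CPM (log2 change -0.89 ± 0.24, adjusted p = 0.00236). HOXC11, a posterior gene of the hindlimb, had 4.40, 4.30 and 7.22 CPM beside 11.2, 9.56 and 13 in shNT (log2 change -1.07 ± 0.30, adjusted p = 0.00334). Direction therefore changed between neighbours, with HOXB9 higher and HOXB13 lower, and with HOXC11 lower between HOXC10 and HOXC13, which were both higher.

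The other 3 members tested did not pass, namely HOXB7 (8.90, 14.8 and 14.5 against 16.4, 17.7 and 13 CPM), HOXC9 (21.8, 14.1 and 12.0 against 20.8, 19.8 and 20.9 CPM) and HOXD9 (15.5, 6.05 and 10.0 against 18.8, 13.3 and 15.2 CPM). Their log2 differences were 0.33, 0.33 and 0.57 with adjusted p of 0.248, 0.195 and 0.0806, and the groups overlapped in each. The groups did not overlap for 11 of the 15 members and for 64.5% of all genes tested. With 1 library left out 11 to 13 HOX genes passed, and over all genes 6425 of 11677 to 7132 of 11776.

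**Figure D3:**
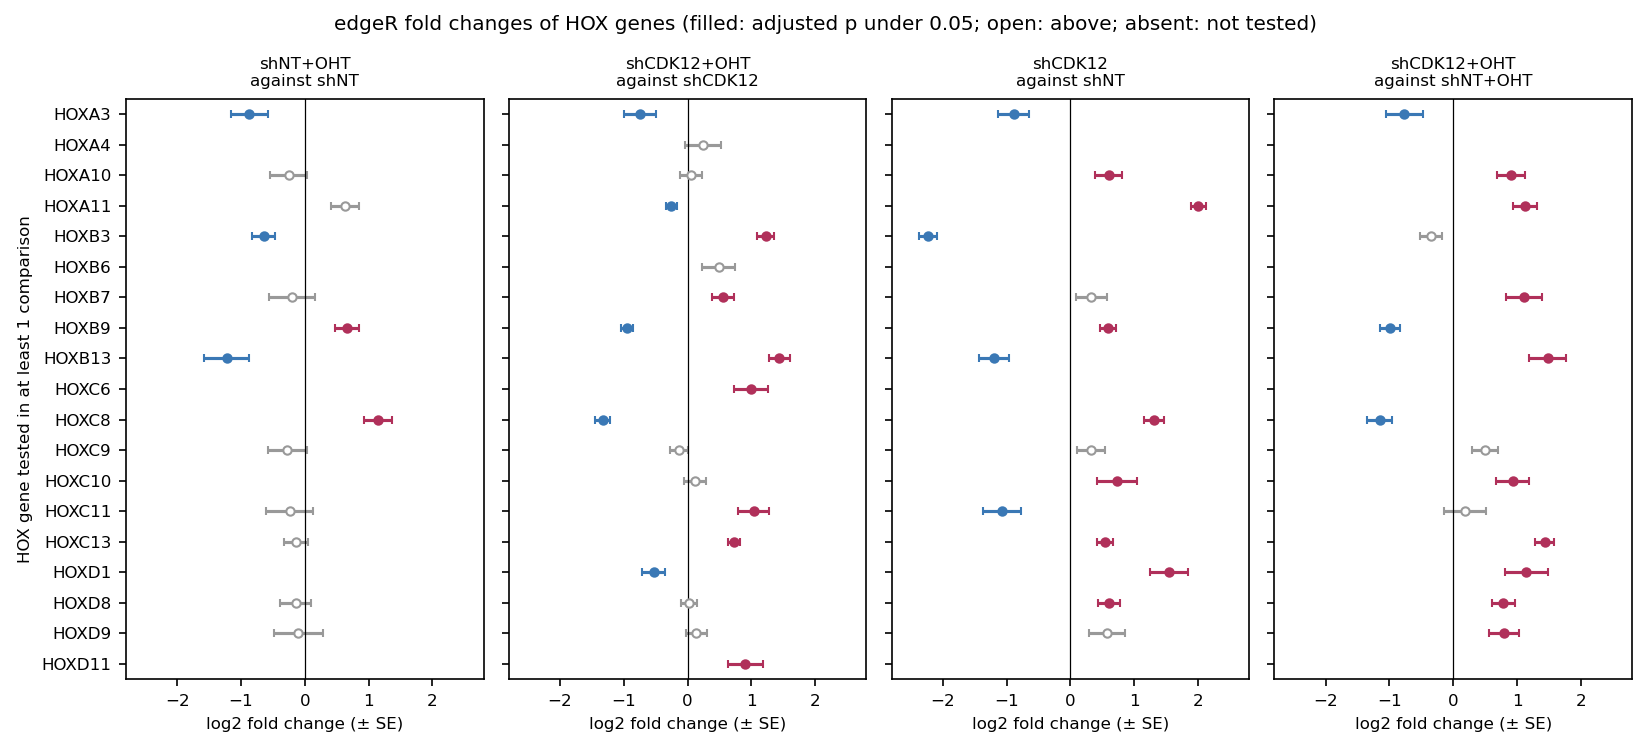
log2 fold change with its SE from edgeR for the 19 HOX genes that passed the filter in at least 1 comparison, in the 4 comparisons of 2 groups of 3 libraries each. Filled points have an adjusted p under 0.05, red for higher and blue for lower, open points do not, and genes without a point were not tested. HOXA11 at 2.01 and HOXB3 at -2.23 in shCDK12 against shNT are the extremes.

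OHT was then compared within the libraries labelled shCDK12. HOXB13, HOXB3, HOXC11 and HOXC13 rose, and HOXC8 and HOXB9 fell. Of 19 members tested, 7 rose and 5 fell, where 27.5% and 21.5% of all 12519 genes did (48.9% in either direction), with a median log2 change of 0.13 for the 19 and 0.05 for all genes. The groups did not overlap for 12 of the 19 and for 56.3% of all genes.

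HOXB13 rose to 23.1, 23.2 and 20.3 CPM with OHT, from 8.57, 7.66 and 8.70, a log2 change of 1.44 ± 0.16 (adjusted p = 1.37e-06). HOXB3 rose to 60.4, 54.6 and 51.5 CPM (log2 change 1.23 ± 0.13, adjusted p = 8.21e-07). In both genes the OHT libraries were all above the others. HOXC13 rose to 129, 135 and 140 CPM, its highest level in any group (log2 change 0.73 ± 0.09, adjusted p = 5.59e-06). HOXC11 had 9.51, 12.6 and 9.61 CPM with OHT (log2 change 1.03 ± 0.24, adjusted p = 0.00192). Groups were apart for both.

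HOXB7, HOXC6 and HOXD11 rose as well. HOXB7 had 25.4, 25.9 and 17.8 CPM with OHT beside 16.4, 17.7 and 13 (log2 change 0.55 ± 0.17, adjusted p = 0.0124). HOXC6 had 7.61, 6.75 and 5.44 CPM beside 4.17, 2.73 and 3.52 (log2 change 0.99 ± 0.27, adjusted p = 0.0049). HOXD11, which acts with HOXA11 in the forearm, had 6.25, 6.85 and 5.26 CPM beside 3.94, 2.52 and 3.89 (log2 change 0.91 ± 0.27, adjusted p = 0.00999). The groups did not overlap for any of the 3. HOXC6 and HOXD11 passed the filter in this comparison alone, and only through the OHT libraries. Without OHT they had 18, 26 and 19 and 17, 24 and 21 counts in the libraries labelled shCDK12. Their 2 calls, counted among the 7, are thus no independent support for a rise. In shNT they stood at 6.05 ± 0.663 and 8.94 ± 2.62 CPM. HOXC6 shares 14.0% of its exon length with HOXC4 and HOXD11 21.4% with HOXD10 on the same strand, and HOXB3 shares 5.83% with HOXB6. How reads in such shared stretches were counted is not given in the sources used here.

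HOXC8 fell to 23.9, 23.8 and 24.3 CPM with OHT from 57.4, 58.9 and 65.0 (log2 change -1.33 ± 0.11, adjusted p = 4.42e-08), and HOXB9 fell to 61.7, 69.9 and 63.5 CPM from 129, 117 and 132 (log2 change -0.95 ± 0.09, adjusted p = 2.27e-07). All OHT libraries were below the others for both genes. HOXA11 had 118, 125 and 128 CPM (log2 change -0.25 ± 0.08, adjusted p = 0.0152), and HOXD1 8.83, 11 and 9.61 CPM (log2 change -0.53 ± 0.18, adjusted p = 0.0231). HOXA3 had 6.52, 8.75 and 7.26 CPM (log2 change -0.75 ± 0.25, adjusted p = 0.0195). HOXA3 overlapped between the groups because shCDK12 replicate 1 was at 6.72, while HOXA11 and HOXD1 did not. These 3 changes, with those of HOXB7 and HOXD11, each missed the threshold when some single library was left out. The count of HOX genes went from 12 to 6 of 17 tested without shCDK12+OHT replicate 1, beside 5096 of all 12482 genes. It went to 7 with all 12 libraries in one fit, where 15 members were tested, beside 4373 of all 11699 genes. There HOXA11, HOXB7 and HOXD1 missed the threshold, and HOXC6 and HOXD11 were not tested.

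The 7 members that did not pass had log2 differences from -0.13 to 0.49. HOXA10 stood at 25.7, 33.1 and 27.6 CPM with OHT, HOXD8 at 37.8, 35 and 33.4, HOXD9 at 16.7, 18.3 and 15.6, HOXC9 at 17.8, 19.9 and 18.3 and HOXC10 at 15.6, 14.4 and 14.0. For these 5 the adjusted p lay between 0.471 and 0.912. HOXA4 had 6.79, 4.94 and 7.44 CPM against 3.71, 7.35 and 3.89 (adjusted p = 0.503) and HOXB6 7.34, 5.51 and 5.62 against 5.10, 4.83 and 3.15 (adjusted p = 0.131). The OHT libraries of HOXB6 were all above the others, with a log2 difference of 0.49 ± 0.26.

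With OHT in both arms, the libraries labelled shCDK12+OHT were set against shNT+OHT. HOXB13, HOXC13, HOXD1, HOXA11 and HOXB7 were between 2.16-fold and 2.79-fold higher, and HOXC8 and HOXB9 were lower. Of 15 members tested, 9 were higher and 3 lower, where 23.8% and 21.6% of all 11668 genes were (45.4% in either direction). The median log2 change was 0.80 for the 15 and 0.05 for all genes. The groups did not overlap for 12 of the 15 and for 55.2% of all genes.

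The log2 changes were 1.48 ± 0.29 for HOXB13 (adjusted p = 0.00201), 1.43 ± 0.15 for HOXC13 (adjusted p = 3.99e-05) and 1.13 ± 0.19 for HOXA11 (adjusted p = 0.000827). HOXB7, at 7.52, 16.5 and 11 CPM in shNT+OHT, was higher by 1.11 ± 0.28 (adjusted p = 0.00824), and HOXD1, at 5.95, 4.95 and 2.90 CPM, by 1.15 ± 0.33 (adjusted p = 0.016). HOXA10, at 15.4, 10.7 and 18.6 CPM in shNT+OHT, was higher by 0.91 ± 0.22 (adjusted p = 0.0067). For all 6 the libraries labelled shCDK12+OHT were above every shNT+OHT library. HOXC10, at 9.71, 7.42 and 6.09 CPM, HOXD8, at 19.1, 23.9 and 20.6, and HOXD9, at 9.40, 7.42 and 11.6, were higher by 0.93, 0.78 and 0.80 on the log2 scale, with adjusted p of 0.0135, 0.00485 and 0.0174.

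HOXC8 was lower by a log2 change of -1.15 ± 0.19 (adjusted p = 0.000738) and HOXB9 by -0.99 ± 0.16 (adjusted p = 0.000527), both without overlap. HOXA3 was at -0.77 ± 0.29 (adjusted p = 0.0494) with overlapping groups, and it missed the threshold with DESeq2, with the replicate block, with length and GC trends removed, with each of the 3 other filters on counts and without 5 of the 6 libraries, shNT+OHT replicate 2 being the exception. HOXB3, which differed strongly between the hairpins without OHT, had a difference of -0.35 ± 0.17 here (adjusted p = 0.118). HOXC9 was at 14.1, 11.5 and 13.9 CPM in shNT+OHT and HOXC11 at 13.5, 4.12 and 8.70, with differences of 0.49 ± 0.20 (adjusted p = 0.0705) and 0.18 ± 0.33 (adjusted p = 0.68). HOXC10, HOXD1 and HOXD9 missed the threshold without some single libraries, and 8 to 12 HOX genes passed when 1 library was left out. Over all genes those fits gave 3520 of 11038 to 6238 of 11851. Across all genes the change followed GC content with r = -0.256.

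Whether the OHT response itself differed between the hairpins was tested as an interaction in all 12 libraries. It did for 7 of 15 members, with HOXB3, HOXB13, HOXC11 and HOXC13 responding more positively to OHT in the libraries labelled shCDK12 and HOXA11, HOXB9 and HOXC8 more negatively. Of all 11699 genes 25.6% differed in the first direction and 19.6% in the second (45.2% in either), so the HOX share of 4 and 3 of 15 stood close to the rest of the genes. The median log2 difference was 0.18 for the 15 and 0.10 for all genes.

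The largest differences were 2.65 ± 0.37 for HOXB13 (adjusted p = 9.56e-06) and -2.48 ± 0.24 for HOXC8 (adjusted p = 1.07e-07) on the log2 scale. HOXC8 stood at 24.4 ± 3.10 CPM in shNT and 24.0 ± 0.279 in the libraries labelled shCDK12+OHT, and at 42.0 to 67.6 CPM in the other two groups. HOXB13 showed the reverse order, with 4.70 to 11.6 CPM in shNT+OHT and the libraries labelled shCDK12 and 14.5 to 23.2 CPM in the others. HOXB3 differed by 1.86 ± 0.23 (adjusted p = 2e-06) and HOXB9 by -1.61 ± 0.22 (adjusted p = 6.08e-06).

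**Figure D4:**
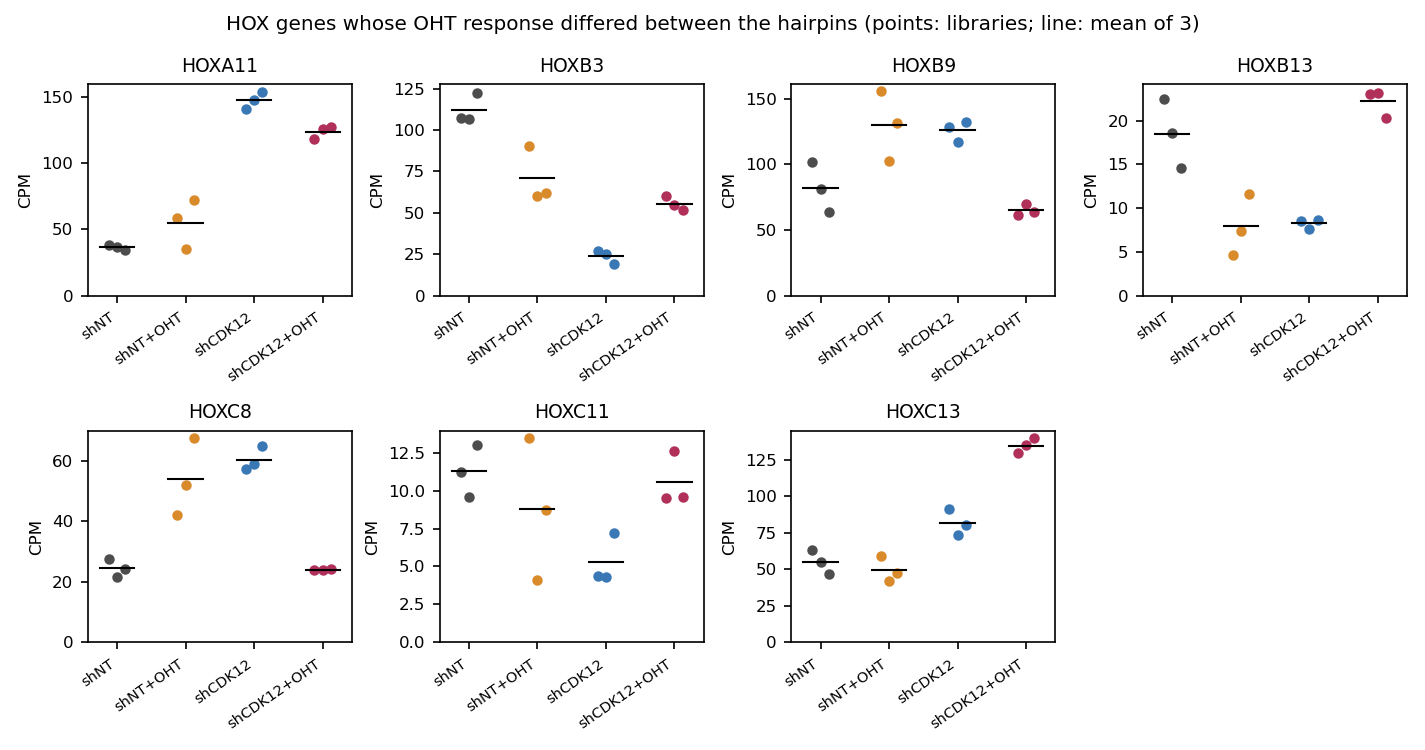
CPM in each library (points) and the mean of 3 (line) for the 7 HOX genes whose OHT response differed between the hairpins, in the 4 groups, on axes that start at 0. HOXC8 and HOXB9 are high in the middle groups and low at both ends, HOXB13 is the reverse, and HOXA11 is between 118 and 153 in both groups labelled shCDK12.

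Smaller differences were -0.91 ± 0.22 for HOXA11 (adjusted p = 0.00222), 0.87 ± 0.20 for HOXC13 (adjusted p = 0.00157) and 1.23 ± 0.45 for HOXC11 (adjusted p = 0.0308). HOXC11 missed the threshold with upper-quartile scaling and without 7 single libraries, 2 each of shNT, shNT+OHT and shCDK12 and 1 of shCDK12+OHT, with adjusted p up to 0.0908. The other 6 genes passed under every alternative in which they were tested. Among the 8 members that did not pass, HOXA3 had the same direction of OHT change under both hairpins, and the interaction was 0.10 ± 0.40 (adjusted p = 0.856).

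The OHT response in shNT and that in the libraries labelled shCDK12 were measured on separate libraries. The log2 changes had opposite signs for 11 of the 13 members tested in both and for 71.1% of the 10233 genes tested in both. The 2 with the same sign were HOXA3 and HOXC9. Of the 5 members that passed in both, 4 moved in opposite directions and HOXA3 fell in both, beside 97.8% opposite among the 1394 genes that passed in both.

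**Figure D5:**
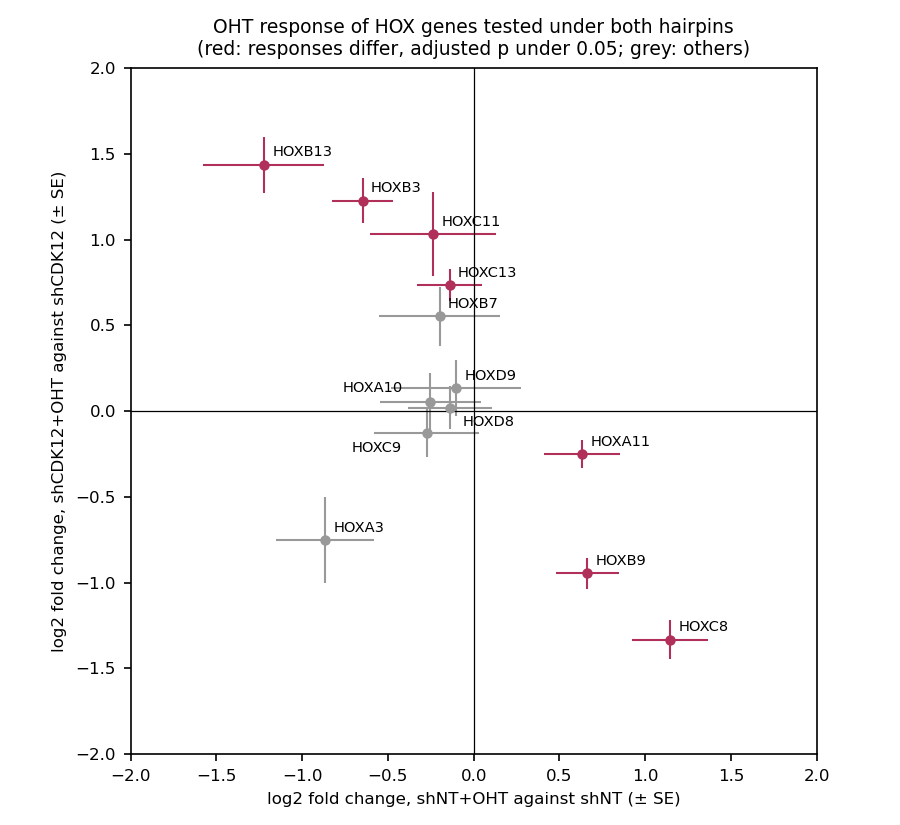
log2 fold change with OHT in shNT (horizontal) against that in the libraries labelled shCDK12 (vertical) for the 13 HOX genes tested in both, with SE bars on each axis. Red genes had an interaction with adjusted p under 0.05, and 11 of the 13 genes lie in the quadrants of opposite sign, with HOXA3 and HOXC9 as the exceptions.

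Other transcripts inside the clusters were few. Of 28 such RNAs and genes listed, 21 were in the table, and HOTAIRM1, HAGLR, HOXA11-AS and HOTAIR passed the filter in at least 1 comparison. With OHT in the libraries labelled shCDK12 4 were tested, of which 3 rose and 1 fell, and 2 of 2 tested were lower in shCDK12 against shNT. HOTAIRM1, a noncoding RNA of the HOXA cluster, had 27.9, 34.0 and 28.1 CPM in shNT, 14.7, 37.9 and 40.9 in shNT+OHT, 21.3, 25.9 and 19.6 in the libraries labelled shCDK12 and 29.6, 31.1 and 28.1 in those labelled shCDK12+OHT. It was lower in shCDK12 against shNT by a log2 change of -0.42 ± 0.18 (adjusted p = 0.0391) and rose with OHT in those libraries by 0.40 ± 0.14 (adjusted p = 0.0261). HAGLR, beside HOXD1, was lower (-0.86 ± 0.29, adjusted p = 0.0135) where HOXD1 was higher, and rose with OHT in the libraries labelled shCDK12 (0.66 ± 0.24, adjusted p = 0.0282) where HOXD1 fell. HOTAIR, which lies between HOXC11 and HOXC12, rose with OHT in those libraries by 0.90 ± 0.25 (adjusted p = 0.00649), and HOXA11-AS changed by -0.94 ± 0.27 (adjusted p = 0.00685). Both passed the filter in this comparison alone.

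Genes that flank the clusters were also looked at. They cannot show where changes stopped, as 62.0% of all genes passed in shCDK12 against shNT and 45.2% passed the interaction. Of 8 flanking genes, 6 were tested and 5 were lower in the libraries labelled shCDK12 than in shNT, beside 32.4% of all genes. The median log2 change over the 6 was -1.13. The 5 lower genes included CALCOCO2 (-1.58 ± 0.14, adjusted p = 3.01e-10) beyond HOXB and SMUG1 (-1.49 ± 0.17, adjusted p = 4.52e-08) beyond HOXC. With OHT in those libraries 3 rose, led by CALCOCO1 (1.42 ± 0.14, adjusted p = 3.16e-07), and in shNT+OHT 1 of 6 was lower, CALCOCO1 (-0.91 ± 0.23, adjusted p = 0.0166). Between the OHT arms 1 was higher and 1 lower, and 3 of 6 passed the interaction with a positive difference, led by CALCOCO1 (2.33 ± 0.27, adjusted p = 1.21e-06). HOXC members between CALCOCO1 and SMUG1 thus included HOXC8, HOXC10 and HOXC13, which were higher in shCDK12 against shNT while CALCOCO1 (-1.43 ± 0.17, adjusted p = 1.17e-07) and SMUG1 were lower.

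HOX proteins bind DNA with partners of the TALE family, of which PBX and MEIS genes are members. The list of such genes also held PBXIP1, a PBX-binding protein outside that family, which is among the 3 lower, the 3 raised and the 3 with an interaction below. Of 7 listed genes tested in shCDK12 against shNT, PBX3 was higher (0.91 ± 0.25, adjusted p = 0.00316) and 3 were lower, led by PBX2 (-1.33 ± 0.11, adjusted p = 3.12e-10) and MEIS3 (-1.20 ± 0.22, adjusted p = 3.63e-05). OHT in those libraries raised 3 of 7, among them PBX2 (0.74 ± 0.11, adjusted p = 2.65e-05), and lowered PBX3 (-0.56 ± 0.19, adjusted p = 0.0201), while in shNT 1 of 5, MEIS3, fell (-0.97 ± 0.27, adjusted p = 0.0234). Between the OHT arms 1 was higher, MEIS2 (1.11 ± 0.29, adjusted p = 0.00914), and PBX2 was lower (-0.48 ± 0.14, adjusted p = 0.0152). The interaction passed for 3 of 7, led by MEIS3 (1.35 ± 0.30, adjusted p = 0.00115).

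Of 19 tested chromatin regulators of HOX clusters, 5 were higher and 4 lower in shCDK12 against shNT. EED, a subunit of the Polycomb complex that methylates a histone, was higher by 0.85 ± 0.15 (adjusted p = 2.65e-05). RING1, the Polycomb ubiquitin ligase, was lower at -1.30 ± 0.13 (adjusted p = 4.86e-09), as was KMT2A, the trithorax methylase known for maintaining HOX transcription, at -1.04 ± 0.10 (adjusted p = 1.13e-09). In shNT+OHT against shNT 1 rose, MEN1 (0.74 ± 0.20, adjusted p = 0.0199), and 1 fell, KMT2A (-0.44 ± 0.12, adjusted p = 0.0257). With OHT in the libraries labelled shCDK12 4 rose and 4 fell, with a rise of KMT2A (0.51 ± 0.09, adjusted p = 0.000172), and between the OHT arms 6 were higher and 4 lower. The interaction was positive for 3, led by KMT2A (0.94 ± 0.15, adjusted p = 3.93e-05), and negative for 2, led by MEN1 (-1.18 ± 0.22, adjusted p = 0.000172).

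Retinoic acid is a classical inducer of anterior HOX genes. Among 8 genes of its receptors, its metabolism and the CDX factors tested in shCDK12 against shNT, CDX2 was higher (0.93 ± 0.27, adjusted p = 0.0049) and 3 were lower, led by the receptor RARA (-2.33 ± 0.11, adjusted p = 1.24e-15) and the retinal reductase DHRS3 (-1.35 ± 0.30, adjusted p = 0.00043). RARA also fell with OHT in shNT (-0.72 ± 0.13, adjusted p = 0.00207), 1 of 2 that fell among 6 tested, with CYP26B1, which breaks retinoic acid down (-0.54 ± 0.16, adjusted p = 0.0291). OHT in the libraries labelled shCDK12 raised 6 of 9, led by DHRS3 (1.17 ± 0.23, adjusted p = 0.000357) and the receptor RARG (1.16 ± 0.17, adjusted p = 1.8e-05), and lowered 2, CDX2 and CRABP2. Between the OHT arms 4 were higher and 1, RARA, lower (-1.04 ± 0.13, adjusted p = 0.000132). The interaction passed for 6 of 8, led by DHRS3 (2.56 ± 0.44, adjusted p = 0.000102). All these lists were written with earlier results of these data known, and their counts stand beside the shares of all genes given above for each comparison.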

How the data were processed

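EU-labelled RNA was sequenced in 12 libraries. The deposited values were raw counts per gene, made by the authors with STAR 2.7.5c and featureCounts 1.4.5-p1 on hg19, as named in the submitters' processing notes. The annotation and the strand setting are not given in the sources used here, and reads of the mixed-in mouse RNA were not used here.

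Counts were tested in R 4.3.3 with the quasi-likelihood test of edgeR 4.0.16, separately on the 6 libraries of each comparison and on all 12 for the interaction, with TMM factors from all genes. Genes with a mean normalized count above 32 were kept, and p-values were adjusted by Benjamini-Hochberg over all genes tested, with a threshold of 0.05. DESeq2 1.42.0, upper-quartile scaling, other filters, thinned counts and fits without single libraries were alternatives. TMM from tested genes only was chosen after seeing the data. The code was tested on simulated data. The other HOX members were all named, and from each other list up to 2 rises and 2 falls by size. Values of 1 HOX member and of some listed genes are not reported here, and counts leave them out. Members and lists were chosen with earlier results of these data known.

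Exon length and GC content came from GENCODE v44 on hg38, another build, with no conversion of coordinates, and promoter windows from RefSeq. Same-numbered libraries of different groups had correlated deviations from their group means of -0.0942 to 0.298, above 0.1 in 2 of 18 pairs, so the replicate numbers were not taken to pair libraries. Depth ran from 1251695 to 10447836 counts.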

Additional observations from a re-analysis of the deposited data

Results flagged for a closer look

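For 7 HOX genes the response to OHT differed between the hairpins by the interaction test of edgeR over 12 libraries, at an adjusted p under 0.05. The difference of the log2 response, in the libraries labelled shCDK12 minus shNT, was 1.86 for HOXB3, 2.65 for HOXB13, 1.23 for HOXC11 and 0.87 for HOXC13. It was -0.91 for HOXA11, -1.61 for HOXB9 and -2.48 for HOXC8. The same test picked 45.2% of all genes, so a difference of this kind was common outside the HOX clusters.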

How the results depend on the processing

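Counts here are of HOX genes with an adjusted p under 0.05. With counts thinned to the smallest library total, 5, 6, 7 and 6 HOX genes were tested, and 3 passed with OHT in shNT, 6 in shCDK12 against shNT, 5 with OHT in the libraries labelled shCDK12 and 4 between the OHT arms, so depth limits how many members can be tested. Of all genes tested in the thinned counts, 1301 of 7365, 4444 of 7504, 3234 of 7438 and 3115 of 7370 passed in that order. With all 12 libraries in one fit 7 of 15 tested passed with OHT in the libraries labelled shCDK12, beside 4373 of all 11699 genes. With no filter 12 of 37 tested passed the interaction, beside 5863 of all 21842 genes. Leaving out 1 library gave 1 to 5 with OHT in shNT and 6 to 11 with OHT in the libraries labelled shCDK12. Over all genes it gave 670 of 9892 to 2523 of 10303 with OHT in shNT. In the libraries labelled shCDK12 it gave 5000 of 12254 to 6500 of 12692. A replicate block gave 5, 13, 12, 11 and 7 in the 5 tests and changed the call of only 2 HOX genes, HOXA3 between the OHT arms (-0.72, edgeR adjusted p = 0.125) and HOXD9 in shCDK12 against shNT (0.66), which passed in 5 of 15 alternatives, with the lowest adjusted p without shNT replicate 1 (1.06, edgeR adjusted p = 0.00586). Of all genes, 1734 of 10272, 7437 of 11718, 6236 of 12519, 4846 of 11668 and 5385 of 11699 passed with the replicate block, in the order of the 5 tests. The summed HOXC level in the libraries labelled shCDK12+OHT was 217.9 CPM on raw library totals and 213.8 with TMM. Upper-quartile scaling moved the median interaction of all genes from 0.10 to -0.02.

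Of 1245 values recomputed, 1130 kept direction and side of the threshold, 71 lost significance, 16 gained it and 28 changed sign, none of these carrying a call, and the cause was not tested. With OHT in the libraries labelled shCDK12, HOXD8 was at -0.0341 with DESeq2, -0.0423 with upper-quartile scaling, -0.0303 with length and GC trends removed, -0.0133 with TMM from tested genes (chosen after seeing the data) and -0.15 when thinned. HOXA10 was at -0.0073 with upper-quartile scaling and -0.0498 with length and GC trends removed. In the interaction, HOXA3 was at -0.0145 with upper-quartile scaling and HOXD8 at -0.20 when thinned. Without single libraries the log2 change with OHT in shNT ran from -0.40 to 0.0217 for HOXC9, -0.41 to 0.0579 for HOXB7, -0.12 to 0.0358 for HOXD9 and -0.13 to 0.0282 for HOXC11. With OHT in the libraries labelled shCDK12 it ran from -0.0574 to 0.10 for HOXD8, -0.11 to 0.23 for HOXA10 and -0.0677 to 0.24 for HOXC10, and for HOXC11 between the OHT arms from -0.0683 to 0.55. In the interaction it ran from -0.28 to 0.54 for HOXD9, -0.16 to 0.28 for HOXA3, -0.0595 to 0.46 for HOXC10 and -0.15 to 0.26 for HOXC9.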
